A study of Oryza sativa with 6 samples.

Results

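A set of moderately abundant transcripts had much lower signals in endosperm of the rice mutant osbzip58-1 than in wild type. They were chosen on the arrays themselves, as probe sets that were clearly bright on every wild type array and at least 1 log2 unit dimmer on every mutant array. The 300 probe sets with the highest wild type mean were left out. Of the remaining rice probe sets, 15491 had a log2 signal of at least 8 on all 3 wild type arrays. Among these, 70 had a gap of at least 1, where the gap is the lowest wild type value minus the highest osbzip58-1 value. These 70 members were 0.452% of the 15491 eligible probe sets, out of 57194 rice probe sets on the array. Because levels and the genotype difference chose the members, both are given below as a description with no test.

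Endosperm of the osbzip58-1 mutant, in the Dongjin background, was set against endosperm of wild type Dongjin, both harvested 9 days after flowering. Plants of both genotypes were field grown in summer. Each genotype had 3 replicates that the labels call biological, and an Affymetrix rice array was used for each, 6 in all. The labels give neither the kind of mutation nor the number of plants pooled per sample, and the titles of all mutant samples carry one line tag. In bulk tissue, fewer cells of a type and less RNA per cell cannot be told apart.

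OsbZIP58, also known as RISBZ1, is a transcription factor of the basic leucine zipper family that is active in the developing rice endosperm. Factors of this family bind DNA as dimers at motifs with an ACGT core or at the related GCN4 motif, which is found in promoters of cereal storage protein genes. In the filling grain the endosperm makes starch and storage proteins, chiefly glutelins and prolamins, and OsbZIP58 is known as an activator of genes of both programmes.

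The labels, the scaling and the tissue were checked over the whole array. A pair of reporter probe sets was at 14.44 to 14.69 on the mutant arrays and at 5.79 or below on the wild type arrays. The signals had been scaled so that the unlogged trimmed mean was 500.1 on each array. The background level of an array, taken as the 95th percentile of 95 control probe sets, was 5.50 to 6.11 on the mutant arrays and 5.92 to 6.27 on the wild type arrays. The 27 hybridisation spike-in probe sets, which report transcripts added after labelling, averaged 11.92 to 12.12 on the mutant arrays and 12.44 to 12.50 on the wild type arrays, a change of -0.42. Scaling to the spike-ins subtracts this -0.42 from every log2 change given below, so each reduction is smaller on that scale by the same amount. Endosperm genes were near the top of the scale, with the glutelin gene GluA2 at 15.18 on mutant arrays and 15.59 on wild type arrays by its brighter probe set. Among markers of other grain tissues, the leaf-type RbcS gene, for the small subunit of Rubisco, reached 12.35 on mutant arrays and 12.52 on wild type arrays by its brightest probe set (limma, adjusted p = 0.702). Both probe sets of the meristem gene OSH1 averaged below every background level in both genotypes. These were the 2 of 6 marker genes with a probe set, and none of their 3 tested probe sets was called.

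The members covered a wide range of abundance. Their mean log2 signal on the mutant arrays ran between 2.57 and 12.96 with a median of 7.97, and on the wild type arrays between 8.19 and 14.20 with a median of 10.46. By wild type signal they ranked between 393 and 16004 among the rice probe sets, with a median rank of 6846.5. In wild type 18 members averaged at least 12, 35 averaged 9 to 12 and 17 averaged under 9. The median log2 change of the members was -2.15, with quartiles of -3.13 and -1.59, while the median over the eligible probe sets was 0.0036. On the unlogged scale the median member kept 22.6% of its wild type signal in the mutant, with quartiles of 11.5% and 33.1%. Among the 51 members with every mutant value above the background level of its array, the mutant mean was at least 4-fold lower in 20, at least 8-fold in 9 and at least 16-fold in 4.

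**Figure D1:**
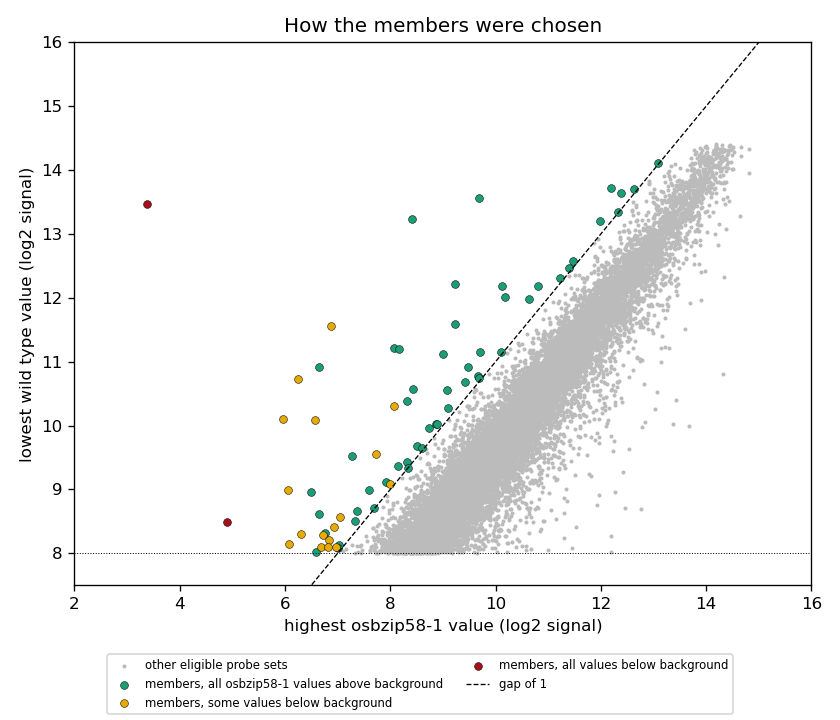
Each point is a probe set, with its highest osbzip58-1 value on the x axis and its lowest wild type value on the y axis (log2 MAS5 signal); the dashed line marks a gap of 1 and the dotted line the minimum of 8. The 70 coloured members lie to the left of the dashed line at all levels up to a lowest wild type value of 14.10, and the red one at upper left has the widest gap, 10.09.

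Together the members carried a small share of the signal, and that share was lower on every mutant array. The rule selects for a lower share, so its size is given as a description only. They made up 0.108%, 0.130% and 0.129% of the summed unlogged signal of the rice probe sets on mutant arrays 1 to 3, against 0.483%, 0.515% and 0.474% on wild type arrays 1 to 3. The mean share was 0.122% ± 0.0125 on mutant arrays and 0.490% ± 0.0217 on wild type arrays (SD, n = 3 each). Without the member with the widest gap the shares were 0.108%, 0.130% and 0.129% in the mutant and 0.455%, 0.489% and 0.451% in wild type.

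In the fit across all tested probe sets with limma, 6.33% were called at an adjusted p under 0.05, and 3.13% were called lower in the mutant. Of the 70 members, 69 were called lower, and nothing can be read from this count because the rule used the same contrast. The exception was OsAffx.31561.1.S1_at, at 0.84, 6.08 and 5.96 in the mutant and 8.14, 9.08 and 8.35 in wild type, whose first mutant value lies far below its other two. Without a trend of the variance on signal level 26 members were called. Rescaling all arrays to the spike-ins raised the median change of all tested probe sets to 0.43. The 70 members then had changes of -10.59 to -0.71, and 34 met the rule. That all 70 stayed lower without overlap was fixed in advance, since a gap of 1 exceeds any spike-in difference between arrays. Groups lay apart in this direction for 13.9% of all tested probe sets on the deposited scale.

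How much signal remained in the mutant divided the members. In 2 members all 3 mutant values were below the background level of their array, in 17 members 1 or 2 values were, and in 51 members none was. Sizes in the first group are lower bounds, those in the second are not exact, and those in the third rest on values above this background. Some of the third group had mutant values just above it, so their sizes may also be limited by background. With the 99th percentile as background, 10 members were wholly below it.

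The widest gap belonged to Os.1501.1.S1_at, a probe set of gene LOC4342570. Its signal was 3.38, 1.70 and 2.64 in mutant replicates 1 to 3, against 13.69, 13.62 and 13.47 in wild type replicates 1 to 3. The transcript was thus among the brighter members in wild type and not above background in any mutant sample. The mutant signal was at least 225-fold lower. The tables used here give this gene no name or function, so whether it is the mutated gene itself was not analysed here. The other member without signal above background was OsAffx.11947.1.S1_at, which has no gene in the table. It had 3.85, 1.67 and 4.90 in the mutant and 8.49, 8.57 and 8.92 in wild type, at least 7.34-fold lower. Its wild type level was close to the minimum of the rule, which limits how large a fall could be seen.

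The 17 members with some mutant values below background were mostly dim transcripts. Their median wild type mean was 9.10 and their median mutant mean 6.07, and 8 of them have a gene in the table. The brightest of them in wild type was Os.8502.2.S1_a_at, at 4.77, 6.56 and 6.87 in the mutant and 11.56, 12.24 and 11.71 in wild type. It was followed in gap by Os.20396.1.A1_at, at 5.58, 3.87 and 6.24 in the mutant and 10.76, 10.72 and 10.87 in wild type. In both, all wild type values lay more than 4 log2 units above all mutant values. LOC4344372 was at 6.36, 6.57 and 5.64 in the mutant and 10.48, 10.08 and 10.72 in wild type. LOC4328880 was at 3.50, 5.89 and 6.05 in the mutant and 9.61, 9.40 and 8.99 in wild type. Each of these genes had at least 1 mutant value below background.

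The 51 members with all mutant values above background kept between 1.46% and 45.4% of their wild type signal, with a median of 27.1%. Their median log2 change was -1.88 and their median wild type mean 10.96. The largest reduction among them was in Os.8502.4.S1_at, which has no gene in the table. It was at 6.32, 8.40 and 7.96 in the mutant and 13.89, 13.86 and 13.23 in wild type, a log2 change of -6.10 ± 0.44 (SE), with the lowest value on mutant array 1. Os.13892.1.S1_at, also without a gene, was the brightest member that fell so far, at 8.46, 9.05 and 9.68 in the mutant and 14.06, 14.50 and 13.56 in wild type. It kept 3.18% of its wild type signal. LOC4338121 was at 6.64, 6.01 and 6.34 in the mutant and 10.95, 11.33 and 10.92 in wild type, a change of -4.73 ± 0.20 (SE). Its 3 mutant values lay within 1 log2 unit of each other and just above background.

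**Figure D2:**
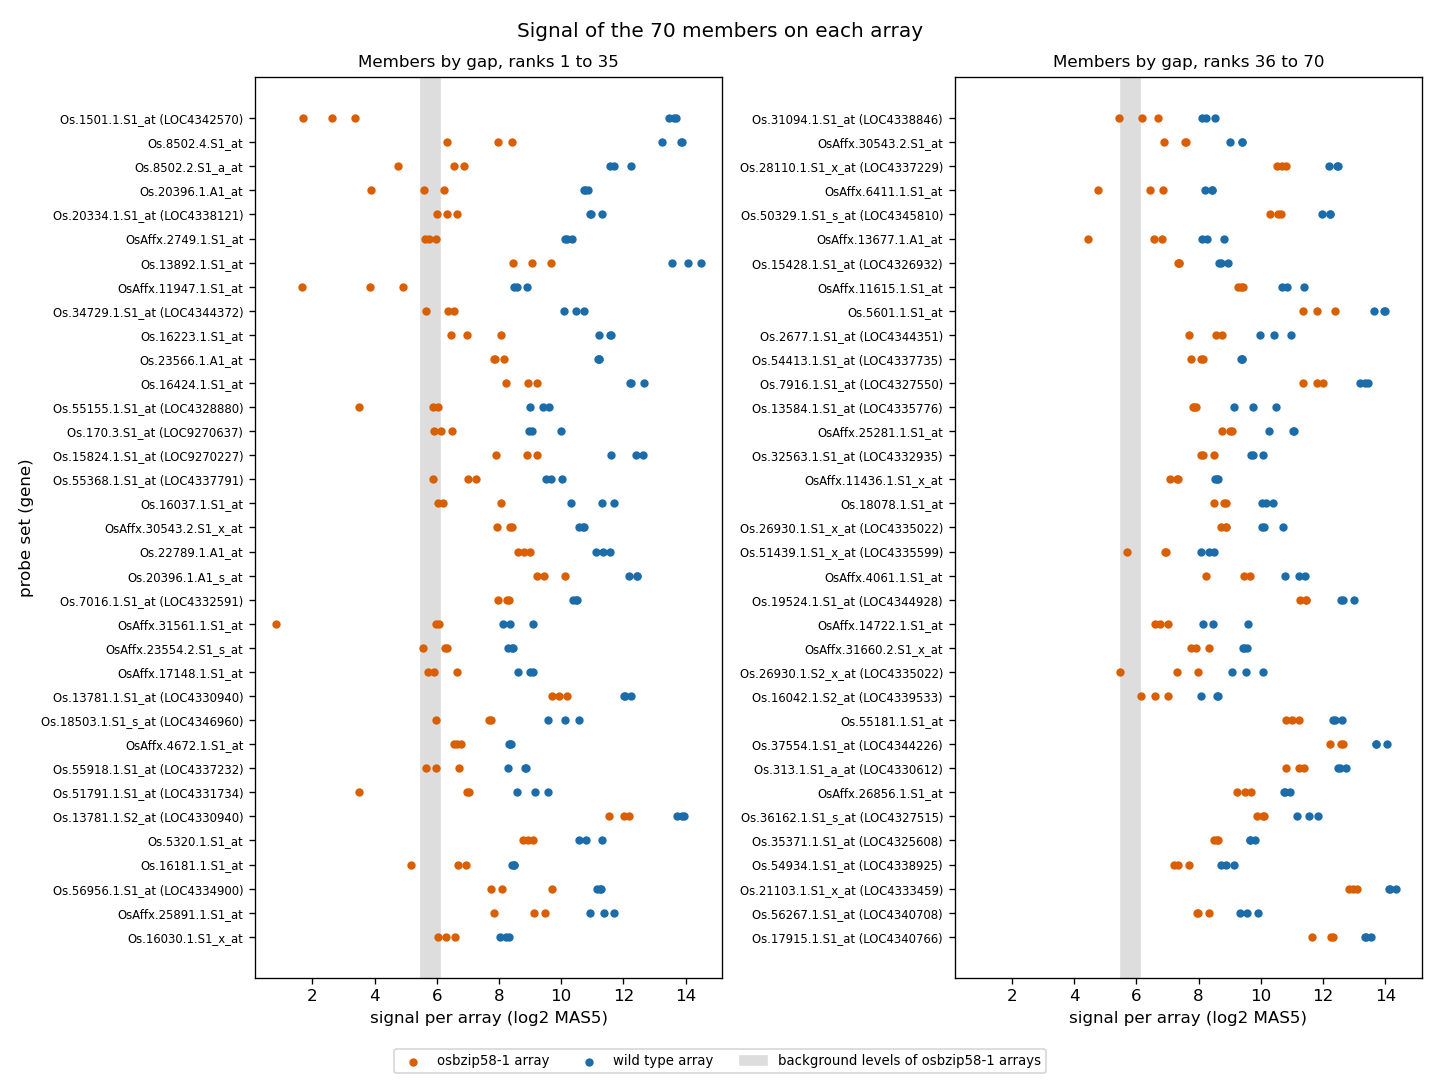
Each row is a member, ordered by gap from rank 1 at upper left to rank 70 at lower right, with its signal on the 3 osbzip58-1 arrays and the 3 wild type arrays (log2 MAS5, x axis); the grey band spans the background levels of the mutant arrays, 5.50 to 6.11. The groups do not overlap in any row, as the rule requires, and in 51 of the 70 rows every mutant value is above the background of its array.

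A gene was given for 36 of the 70 members, which stand for 34 genes. Most carry only a locus number, and 4 have a name that states a function. In wild type, 2 of these 4 were bright, above 11 on every array, and the other two averaged under 9.

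ABA8OX2 (LOC4345810) encodes abscisic acid 8'-hydroxylase, a cytochrome P450 that inactivates the hormone abscisic acid. Its signal was 10.54, 10.64 and 10.30 in the mutant, against 12.23, 11.98 and 12.23 in wild type. This is a log2 change of -1.66 ± 0.12 (SE), or -1.23 on the spike-in scale, and the mutant kept 31.7% of the wild type signal. TUB4 (LOC4327550) encodes a beta-tubulin, a building block of microtubules. It was at 11.80, 11.99 and 11.35 in the mutant, against 13.20, 13.33 and 13.45 in wild type, a change of -1.61 ± 0.16 (SE), or -1.19 on the spike-in scale. For these 2 genes the values of each genotype lay within 1 log2 unit of each other.

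COPT2 (LOC4338846) belongs to the COPT family of copper transporters, which carry copper across membranes. It was at 6.17, 6.69 and 5.45 in the mutant, against 8.51, 8.24 and 8.09 in wild type. One of the mutant values was below background, so the fitted change of -2.18 ± 0.33 (SE) is not exact. BBD1 (LOC4326932) is named for a bifunctional nuclease in basal defence response, after its relative in Arabidopsis. It was at 7.33, 7.38 and 7.36 in the mutant, against 8.71, 8.66 and 8.95 in wild type. Its change was -1.42 ± 0.17 (SE), or -0.99 on the spike-in scale, and its mutant values differed by less than 0.1.

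The other named loci have no stated function in the tables used here and are described by their signal. LOC9270637 was at 5.90, 6.50 and 6.14 in the mutant and 8.96, 10.01 and 9.05 in wild type. LOC4337791 lay between 5.88 and 7.28 in the mutant, against 9.53, 10.03 and 9.66 in wild type. Their changes were -3.16 and -3.02, or -2.74 and -2.60 on the spike-in scale. LOC4332591 was at 8.26, 8.32 and 7.98 in the mutant and 10.48, 10.50 and 10.39 in wild type. LOC4334900 was at 8.09, 7.73 and 9.71 in the mutant and 11.29, 11.15 and 11.24 in wild type. In LOC4334900 replicate 3 of the mutant was the one closest to wild type, while LOC4332591 was even across replicates.

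LOC4331734 was at 6.97, 3.51 and 7.05 in the mutant and 9.16, 8.57 and 9.57 in wild type, so its change of -3.25 ± 0.80 (SE) rested in part on a mutant value below background. Without mutant replicate 2 it was -2.09. LOC4346960 was at 7.69, 7.74 and 5.98 in the mutant and 10.12, 10.57 and 9.56 in wild type, and the third of its mutant values was below background. LOC4344351 was at 7.68, 8.57 and 8.74 in the mutant and 9.97, 10.97 and 10.43 in wild type. The mutant spread in each of these 3 loci was over 1 log2 unit. LOC4337735, LOC4335776 and LOC4332935 were steadier in the mutant, with changes of -1.39 ± 0.16, -1.92 ± 0.29 and -1.59 ± 0.17 (SE). LOC4335776 had its spread in wild type, at 10.48, 9.12 and 9.75, against 7.81, 7.93 and 7.86 in the mutant.

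Some members were probe sets of one transcript or gene. The 70 members have 65 ID stems, the part of a probe set ID before its second point, and 5 stems hold a pair of members. With 1 probe set kept per gene or stem there were 65. The stem Os.8502 kept the smallest percentage of its wild type signal among these pairs. Beside its 2 members it has 2 probe sets among the 300 brightest, Os.8502.5.S1_x_at at 7.83, 10.65 and 10.88 in the mutant and 14.47, 14.73 and 14.27 in wild type, and Os.8502.7.S1_x_at at 7.46, 13.18 and 12.27 in the mutant and 15.68, 15.65 and 15.73 in wild type. On all 4 probe sets the first mutant array was the lowest. The stem Os.20396 has no other probe set; its members Os.20396.1.A1_at and Os.20396.1.A1_s_at changed by -5.56 and -2.76.

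LOC4330940 was measured by 2 members of the stem Os.13781 and by 1 further probe set. Os.13781.1.S1_at reached at most 10.17 in the mutant, against 12.05, 12.25 and 12.01 in wild type. Os.13781.1.S2_at lay between 11.54 and 12.19 in the mutant, against 13.71, 13.94 and 13.90 in wild type. The further one, Os.52005.1.S1_at, missed the minimum wild type level at 6.31, 6.17 and 6.34 in the mutant and 7.93, 7.90 and 7.92 in wild type. The changes of the 3 probe sets were close, at -2.17, -1.94 and -1.64. LOC4335022 had the 2 members of the stem Os.26930, with changes of -1.46 and -2.64, and the second of these had a mutant value of 5.46 below background. A further probe set of this gene, OsAffx.25891.1.A1_s_at, was dim, overlapped between the genotypes and was not called. Its stem also holds the member OsAffx.25891.1.S1_at, with no gene listed and a change of -2.52. Whether that member measures the same gene was not tested.

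**Figure D3:**
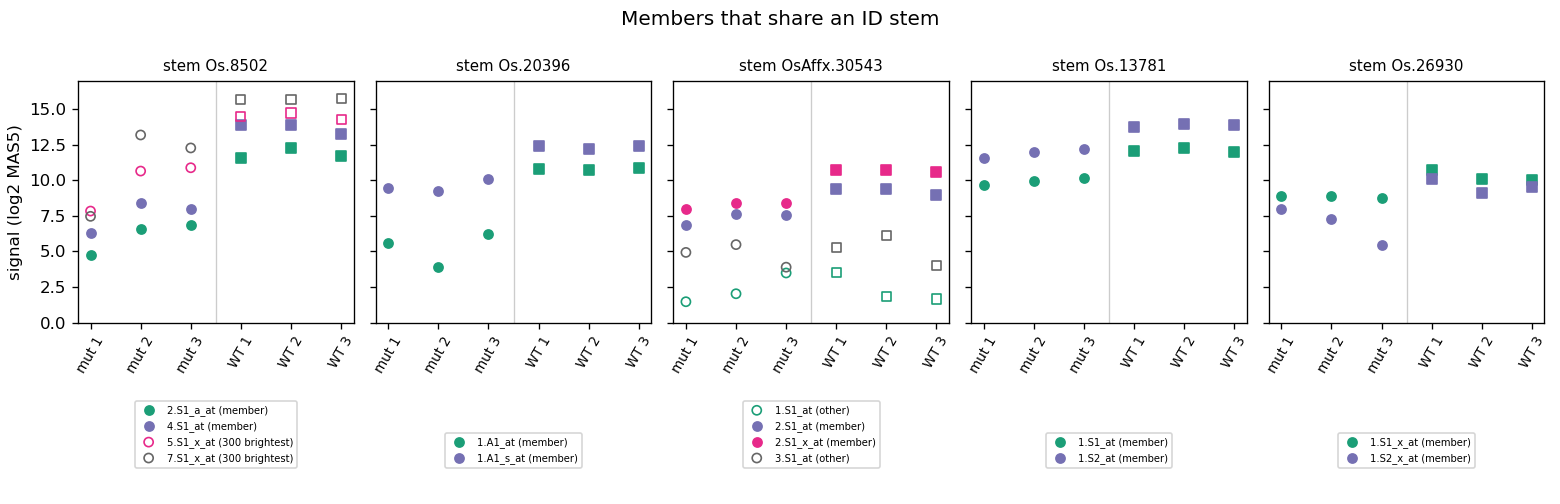
Signal (log2 MAS5, y axis) on the 3 osbzip58-1 arrays (mut, circles) and the 3 wild type arrays (WT, squares) for every probe set of the 5 ID stems with 2 members; filled symbols are members and open symbols other probe sets. All 4 probe sets of Os.8502 are lowest on the first mutant array, while the 2 open probe sets of OsAffx.30543 overlap between the genotypes.

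Other probe sets of the members' genes show how far a reduction held across the probes of a gene. For 10 of the 34 genes the array has further probe sets, 17 in all. On the deposited scale 16 of the 17 had a lower mean in the mutant, where the median change of all tested probe sets was 0.0027. Several of the 16 were lower by less than the spike-in change of -0.42, so this count depends on the scaling. In the limma fit 16 were tested and 7 were called lower, where 3.13% of all tested probe sets were, and 5 of the 17 are among the 300 brightest. For TUB4 the probe set Os.46904.1.S1_x_at was lower, with a change of -0.96, and the dim Os.46904.1.S1_at was not called, with a difference of -0.0217. LOC4335599, a member at 5.70, 6.96 and 6.93 in the mutant and 8.33, 8.09 and 8.50 in wild type, had a further change of -1.80 on Os.51439.1.S1_at. The bright OsAffx.3952.1.S1_s_at of the same gene was lower too, at 11.63, 11.60 and 11.87 in the mutant and 12.69, 12.52 and 12.90 in wild type.

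Several genes gave divided results. In LOC9270227 the member Os.15824.1.S1_at lay at 7.90, 9.22 and 8.90 in the mutant, against 12.64, 12.39 and 11.59 in wild type, a change of -3.53. All 5 other probe sets of that gene are among the 300 brightest, with differences of -0.87 to -0.38, of which 1 was called. In LOC4339533 the member Os.16042.1.S2_at changed by -1.86, whereas Os.16042.1.S1_at was much brighter, at 11.74, 12.07 and 12.32 in the mutant and 12.32, 11.99 and 12.06 in wild type, and overlapped. In LOC4337229 the member changed by -1.71 and Os.28110.3.S1_at by -2.60. The dim Os.28110.4.S1_x_at of that gene was higher in the mutant, by 1.22, and was not called. In LOC4327515 the member changed by -1.49, while Os.36162.1.S1_at had a difference of -0.64 and was not called. A single level for these genes therefore depends on the probe set. Signals of different probe sets cannot be set against each other as amounts of RNA.

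By gene order in the table of assembly ASM3414082v1, used only for order, members LOC4337229 and LOC4337232 lie close together with 2 genes between them. LOC4337229 was at 10.52, 10.67 and 10.80 in the mutant and 12.19, 12.45 and 12.47 in wild type. LOC4337232 was at 5.65, 5.97 and 6.72 in the mutant and 8.28, 8.85 and 8.87 in wild type. Of the genes between them, LOC4337230 had a difference of -0.29 and LOC9270735 of 0.81. No other pair of member genes had 10 or fewer genes between them.

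The kinds of probe set were compared with those of the eligible probe sets. Of the members, 54 had a plain _at ending (77.1%, against 73.0% of the eligible), 9 ended in _x_at, 5 in _s_at and 2 in _a_at. The _x_at and _s_at endings mark probes that may match several transcripts. The prefix OsAffx was carried by 18 members (25.7%), against 9.62% of the eligible probe sets and 44.6% of all rice probe sets. A gene was listed for 51.4% of the members and for 39.2% of all rice probe sets. This share was not taken over the eligible probe sets, so an excess among the members cannot be read from it.

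Replicates of the mutant differed more in the members than replicates of wild type did. The median SD over 3 arrays was 0.333 in the mutant and 0.211 in wild type, against 0.160 and 0.134 over the eligible probe sets. The eligible probe sets were brighter in the mutant, with a median mean of 10.19. Over all probe sets in the limma fit, with a median mutant mean of 7.90, the median SD was 0.272 in the mutant and 0.251 in wild type. Whether the member SDs follow from signal level was not tested. Mutant replicate 1 gave the lowest mutant value in 41 members (58.6%), replicate 2 in 11 and replicate 3 in 18. Over the eligible probe sets replicate 1 was lowest in 34.4%. The median member signal was 7.78, 8.11 and 7.96 on mutant arrays 1 to 3, against 10.59, 10.40 and 10.50 on wild type arrays 1 to 3. The lowest wild type value was spread evenly, with 25, 21 and 24 members for replicates 1 to 3. Without mutant replicate 1 the rule, then less strict, gave 90 members with a median change of -1.75, the 70 among them.

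The rule was also applied to 2 arrays of each genotype, and the change was taken between the 2 arrays held out. There are 9 ways to do this, and they share arrays. The choice then held 105 to 161 probe sets, all 70 members among them each time, as the looser choice requires. In the held-out arrays 57.8% to 82.9% of the chosen probe sets were lower in the mutant by at least 1, against 2.04% to 3.27% of the eligible probe sets. These were 85 to 93 probe sets. They include the 70 members each time, which the full rule fixes as lower by at least 1 in every pair. The share is therefore no independent check of the members. Between 2 and 12 of the chosen probe sets were not lower at all. The median held-out change of all chosen probe sets was -1.78 to -1.14. It cannot be set against the -2.15 of the members, because the looser choice also holds probe sets that are not members.

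**Figure D4:**
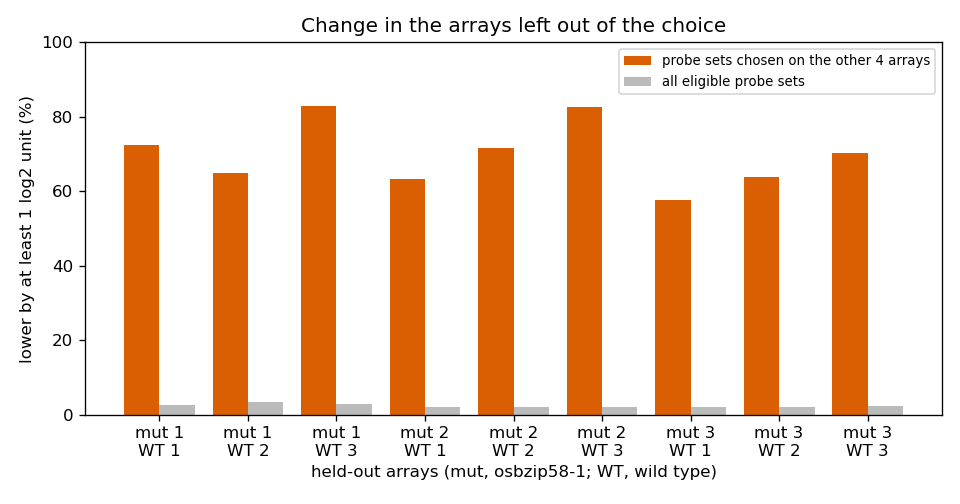
Percentage of probe sets that were lower in the mutant by at least 1 log2 unit (y axis) in each of the 9 held-out pairs of arrays (x axis, osbzip58-1 array above wild type array); orange bars are the probe sets chosen on the other 4 arrays and grey bars all eligible ones. The orange bars reach 57.8% to 82.9%, and the grey bars 2.04% to 3.27%. Each orange bar includes the 70 members, which the full rule fixes as lower by at least 1, so the bars are no independent check.

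The limit of the rule cuts through a continuous range. The last 5 members inside it had gaps of 1.01 to 1.04 and the first 5 probe sets outside it had gaps of 0.96 to 0.98. Inside, LOC4333459 was the brightest, at 12.84, 12.96 and 13.09 in the mutant and 14.13, 14.10 and 14.35 in wild type. LOC4340766, also inside, was at 11.64, 12.33 and 12.26 in the mutant and 13.34, 13.38 and 13.54 in wild type. Outside, LOC4339297 was at 11.45, 11.95 and 11.94 in the mutant and 12.98, 12.93 and 13.06 in wild type. Changes on the sides of the limit overlapped, at -1.51 to -1.14 inside and -1.51 to -1.18 outside. A gap of 0.8 would have given 110 members, and a gap of 1.5 gives 30.

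Among the 300 brightest probe sets, which the rule leaves out, 7 also had a gap of at least 1. They included the 2 of the stem Os.8502 and 2 of LOC4342688, whose synonyms in the table include prolamin, the name of a class of cereal storage proteins. Os.11099.2.S1_x_at of that gene was at 11.24, 12.38 and 12.57 in the mutant and 15.32, 15.47 and 15.42 in wild type. With the limits turned round, the mutant at least 1 above wild type and at least 8, there were 79 probe sets. The same 300 brightest in wild type were left out. The number eligible in this direction was not counted, so no share is given.

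Genes of the storage programme were listed by name to see whether any was a member. Of 50 genes in 6 lists, 25 had a probe set in the tables, 45 probe sets in all, and 0 of these were members. Most of the 45 could not have been members. Among them 18 were in the 300 brightest, which the rule leaves out, and others fell below its wild type minimum. No seed storage protein probe set was eligible, as 5 of the 7 were in the 300 brightest and the rest were too dim. Only 0.452% of all eligible probe sets were members, so nothing can be read from the count of 0. OsbZIP58 itself had no probe set that could be matched by name. In the limma fit 36 of the 45 were tested, and 6 were lower and 2 higher in the mutant, where 6.33% of all tested probe sets were called.

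For starch synthesis 24 probe sets of 10 genes were measured, of which 4 were lower, 2 higher, 15 not called and 3 not tested, with a median change of -0.38. SSI, a starch synthase that extends amylopectin chains, was at 13.62 in the mutant, against 14.23 in wild type (adjusted p = 0.0104, limma). BEI, a starch branching enzyme, was lower on 2 of its 6 tested probe sets, by -1.20 and -0.48 (adjusted p = 0.0437 and 0.0367, limma). GBSSI, which makes amylose, was lower on 1 of 5 tested, by -0.44 (adjusted p = 0.0314, limma). The sucrose synthase gene SUS1 was higher on both of its probe sets, by 0.93 and 0.56 (adjusted p = 0.0278 and 0.0270, limma).

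For seed storage proteins 7 probe sets of 6 genes were matched by name, all of them glutelin genes, and 1 was lower: GluA1, a glutelin, was at 15.36 in the mutant, against 15.97 in wild type (adjusted p = 0.0220, limma). BiP1, a chaperone that helps storage proteins fold, was at 14.86 in the mutant, against 15.36 in wild type (adjusted p = 0.0268, limma). No prolamin of the list was matched, so LOC4342688, described above, is not in this count. These lower calls kept their sign under other scalings, but most became small under quantile normalization and on the spike-in scale. Under median centring they shrank less, to -0.50 for SSI, -0.49 for GluA1, -0.38 for BiP1 and -0.33 for GBSSI. The brighter and dimmer BEI probe sets were then at -0.36 and -1.08. Under quantile normalization GluA1 was at -0.12, BiP1 at -0.11, GBSSI at -0.12 and the brighter BEI probe set at -0.0505, while SSI was at -0.40 and the dimmer BEI probe set at -1.28. On the spike-in scale the same changes were -0.18 for GluA1, -0.0767 for BiP1, -0.019 for GBSSI, -0.0518 for the brighter BEI probe set, -0.19 for SSI and -0.77 for the dimmer BEI probe set. Of the 4 probe sets of starch breakdown genes 2 were tested, and neither these nor the 2 of regulators were called.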

How the data were processed

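RNA of 6 endosperm samples was labelled with a 3' in vitro transcription kit, per the labels' protocols. The authors deposited 1 log2 signal per probe set and array, made with MAS5 per the submitters' processing notes (no version stated there). That the logarithm has base 2 follows from the unlogged 2% trimmed mean, 500.1 on each array. The number of arrays limits precision.

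The values were used as deposited. Control probe sets (AFFX, RPTR; 187) were left out. Of the rice probe sets, 22436 have 1 gene in the platform annotation, 95 several and 34663 none; symbols were updated through the RefSeq gene table. limma 3.58.1 in R 4.3.3 (lmFit, eBayes with a variance trend, two-sided, Benjamini-Hochberg, 0.05) was fitted to 34883 probe sets that reached the 40th percentile on at least 3 arrays, and was tested on simulated data. Changes are mutant minus wild type; SE is the moderated standard error. Bounds set the wild type mean against the mean background level of the mutant arrays. The background leaves out the 2 reporters that stood above it in the mutant.

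Members and lists were chosen with earlier results of these data known. Genes named by rule were the 25 members with the widest gap that have a gene, list genes, and 5 members and 5 other probe sets beside the limit; members without a gene, the 7 bright probe sets and other probe sets of members' genes were named after their values were seen. List genes were matched by names in the gene table. Replicate numbers are those of the source names; same-numbered replicates did not deviate together (correlations 0.029, -0.033 and -0.015). Mutant titles carry numbers 1 higher, and the 2 pairs they would give had correlations of -0.033 and 0.0114. Figures used matplotlib 3.10.9 in Python 3.11.15. Alternatives were other scalings, limits of the rule, variance models, a replicate block and leaving out each array.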

Additional observations from a re-analysis of the deposited data

Results flagged for a closer look

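A pair of reporter probe sets, which belong to the array's controls and not to the compared transcripts, was far brighter with mutant RNA than with wild type RNA. The mean log2 signal of RPTR-Os-K01193-1_at was 14.52 for osbzip58-1, against 2.64 for wild type, at least 350-fold higher over the wild type background level. That of RPTR-Os-U43284-1_s_at was 14.58 for osbzip58-1, against 4.78 for wild type, at least 364-fold higher. Groups of 3 arrays are too small for a search for single outlying values.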

How the results depend on the processing

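The number of members, 70, stayed within 1.5 times under quantile normalization (74), median centring (56), a pseudocount of 16 (68), without _x_at and _s_at probe sets (56), with the 300 brightest kept (77) and with wild type minimums of 7 (93) and 9 (49). It was 34 on the spike-in scale, 110 at a gap of 0.8 and 30 at a gap of 1.5, with median changes of -2.67, -1.63 and -3.39 in place of -2.15. Leaving out single arrays loosens the rule, and gave 86 to 104 members with medians of -1.97 to -1.75. The 2 members wholly below background became 10 with the 99th percentile as background, and 2 to 5 without single arrays, the 5 without mutant replicate 2. The 2209 calls over all probe sets became 99 without a variance trend, with 26 members called in place of 69. Without single arrays they were 527 to 1634, with 60 to 70 members called. The calls were 1306 and 1402 without mutant replicates 2 and 3, and 855, 1228 and 527 without wild type replicates 1, 2 and 3. Without a wild type array only 68 of the 70 members were tested, and 60 to 63 were called. The member with the widest gap was not fitted there, since it passed the filter of at least 3 arrays only through its wild type arrays. The replicate block gave 1964 calls and 70 members called. The share lower by at least 1 in held-out arrays was 57.8% to 82.9%, with a median of 70.2%, and it includes the 70 members by definition. For the 25 named members, 258 of 272 settings moved the change by less than the replicate SD. The other 14 were 12 under spike-in scaling, 1 under median centring and 1 with the pseudocount. The change was reversed in 0 settings, which the gap of 1 fixes for left-out arrays and for the spike-in and median shifts. Keeping 1 probe set per gene or stem (65) and leaving out the first member, both added after the data were seen, each gave a median of -2.13.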
